A study of Mus musculus with 30 samples.

Results

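Primitive streak transcription factors are the 10 genes T, Mixl1, Eomes, Mesp1, Mesp2, Evx1, Lhx1, Gsc, Tbx6 and Msgn1, chosen by name from the 55487 genes of the count tables; all 10 were found by symbol. They were followed in 18 RNA-seq libraries of mouse cells, 3 per group, all labelled as embryonic stem cells. The iETV2 line was sampled with doxycycline (DOX), given to switch on the transcription factor ETV2, and as an untreated control. The iETV2-KDM4A (H188A) line, called the H188A line here, was likewise sampled with DOX and as an untreated control; by its name it carries, beside iETV2, a variant of the histone demethylase KDM4A. The remaining RNA experiment compared KDM4A/4C DKO cells, by that label lacking both demethylase genes Kdm4a and Kdm4c, with control cells whose line and treatment the labels do not give. Neither DOX dose nor length of treatment, nor whether a line is 1 clone, is stated in the labels. H3K9me3, the histone mark that KDM4A and KDM4C remove, was mapped in 6 further samples, 3 labelled DOX and 3 labelled as controls, whose titles begin with EB. The 3 DOX samples are not alike by title: their names hold DOX-D2, DOX-D3 and Er71-Flag-DOX-D2.

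The primitive streak is the strip of the gastrulating embryo through which epiblast cells pass to become mesoderm and endoderm. WNT, NODAL and BMP signals switch on its transcription factors, and the position of a cell along the streak, from posterior to anterior, is tied to its later fate. Posterior streak gives rise to extraembryonic and blood-forming mesoderm, the tissue in which ETV2 acts, while the anterior end forms the node, notochord and endoderm.

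The members fall into 4 roles. T (Brachyury; chromosome 17, 8434423 to 8442496, GRCm38), a T-box factor needed for mesoderm formation and notochord, and Mixl1 (chromosome 1, 180693043 to 180697034), a homeobox factor of nascent mesoderm and endoderm, are expressed along much of the streak. Eomes (chromosome 9, 118478186 to 118486132) is a T-box factor needed for definitive endoderm and cardiac mesoderm, and acts upstream of Mesp1. Evx1 (chromosome 6, 52313498 to 52318389), a homeobox factor related to fly even-skipped, marks the posterior streak, and Mesp1 (chromosome 7, 79792241 to 79793590), a basic helix-loop-helix factor, marks mesoderm as it leaves the streak. Tbx6 (chromosome 7, 126781483 to 126785548), Msgn1 (chromosome 12, 11208382 to 11208948) and Mesp2 (chromosome 7, 79810727 to 79813431) act in presomitic mesoderm, Mesp2 in setting segment borders. Lhx1 (chromosome 11, 84517975 to 84525534), a LIM homeobox factor, and Gsc (chromosome 12, 104471209 to 104473236), a homeobox factor of the organizer, belong to the anterior streak and its derivatives.

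The 250 bases before the transcription start are shown for 4 members, Evx1 and Msgn1, which moved one way, and Lhx1 and T, which moved the other way, in the iETV2 and the DKO experiment described below. They are RefSeq sequences of build GRCm38.p6, given 5′ to 3′ on the strand of the gene. Capitals mark GGAA, the core of the sites bound by ETS factors such as ETV2, or its reverse complement TTCC.
Evx1 (chr6:52313248-52313497, plus strand): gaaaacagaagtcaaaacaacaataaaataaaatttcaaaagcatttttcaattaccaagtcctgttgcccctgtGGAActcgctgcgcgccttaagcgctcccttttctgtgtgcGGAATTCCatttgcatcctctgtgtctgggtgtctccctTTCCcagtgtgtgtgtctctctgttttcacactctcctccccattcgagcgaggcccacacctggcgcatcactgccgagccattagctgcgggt
Msgn1 (chr12:11208949-11209198, minus strand): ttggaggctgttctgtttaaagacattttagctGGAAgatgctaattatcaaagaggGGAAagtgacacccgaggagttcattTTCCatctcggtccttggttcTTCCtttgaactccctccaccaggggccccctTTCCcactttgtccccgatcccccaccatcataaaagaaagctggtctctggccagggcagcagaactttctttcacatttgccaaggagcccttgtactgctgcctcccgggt
Lhx1 (chr11:84525535-84525784, minus strand): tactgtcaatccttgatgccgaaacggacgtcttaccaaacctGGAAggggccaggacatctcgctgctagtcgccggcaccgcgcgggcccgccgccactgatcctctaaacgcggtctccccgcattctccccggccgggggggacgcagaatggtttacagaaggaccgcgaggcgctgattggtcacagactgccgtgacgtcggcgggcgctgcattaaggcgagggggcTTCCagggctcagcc
T (chr17:8434173-8434422, plus strand): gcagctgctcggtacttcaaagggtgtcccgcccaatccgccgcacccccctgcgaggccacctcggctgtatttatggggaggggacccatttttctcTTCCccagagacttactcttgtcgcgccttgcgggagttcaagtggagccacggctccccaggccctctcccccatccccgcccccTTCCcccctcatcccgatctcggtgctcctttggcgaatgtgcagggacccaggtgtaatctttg
Msgn1 held 5 matches to GGAA on either strand, Evx1 4 (a pair of them side by side as GGAATTCC), and Lhx1 and T 2 each. These 4 were picked by their direction of change, and other members do not keep that order. Tbx6 held 2 matches and Mesp1 1, although both rose with DOX in iETV2, and Gsc and Mesp2, which were not called there, held 2 each. The table of promoters held 9 of the 10 members, and 8 of these 9 had at least 1 match, Eomes having 0. Such a short motif is common: 93.4% of the 32851 mouse promoters of the same length held it. The longer ETS motif CCGGAA was found in 0 of 9 members, against 12% of all promoters. The T-box motif GGTGTGA (3.33% of all promoters) and the FOXH1 motif AATNCACA (3.18%) were also found in 0 of 9. CTTTGA, bound by the TCF factors of the WNT pathway, occurred in 3 of 9, 2 times each in Msgn1 and Mesp1 and 1 time in T, against 13.8% of all promoters. Matches overlapping between motifs were not removed.

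Library totals ran from 40334911 to 68970038 counts, and the level of a gene is given as CPM, its counts scaled to the library total, or as a log2 change between groups with its standard error (SE). "Rose" and "fell" are used at an adjusted p under 0.05 in edgeR's quasi-likelihood test over all genes. The labels do not say that replicates are separate cultures, so p-values measure the spread between these samples. Where groups are said not to overlap, or every library of a group to lie above the other group, this is a description only. The share of all genes for which this holds was not counted. Etv2 was at 18.1 to 19.7 CPM with DOX and 2.73 to 3.05 CPM without in iETV2, and at 11.5 to 18.6 and 0.139 to 0.669 CPM in the H188A line. In the DKO experiment Etv2 was lower in DKO than in control libraries (log2 change -1.58 ± 0.13, adjusted p = 4.61e-10). Kdm4a was at 43.9 ± 2.6 CPM in the libraries labelled DKO and 54.6 ± 0.94 CPM in their controls (SD, n = 3 each), and Kdm4c was at 45.5 ± 2.6 and 30.7 ± 1.3 CPM. Gene counts thus show no loss of Kdm4c RNA; where the genes were cut is not stated, and counts per gene do not show a small deletion. Of 7 embryonic stem cell markers, among them Pou5f1, Nanog and Sox2, the summed level was 594 to 1548 CPM in 5 groups and 48.4 to 51.6 CPM in the control cells of the DKO experiment, which goes against their label. In bulk RNA, fewer cells of a type and less RNA per cell cannot be told apart.

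**Figure D1:**
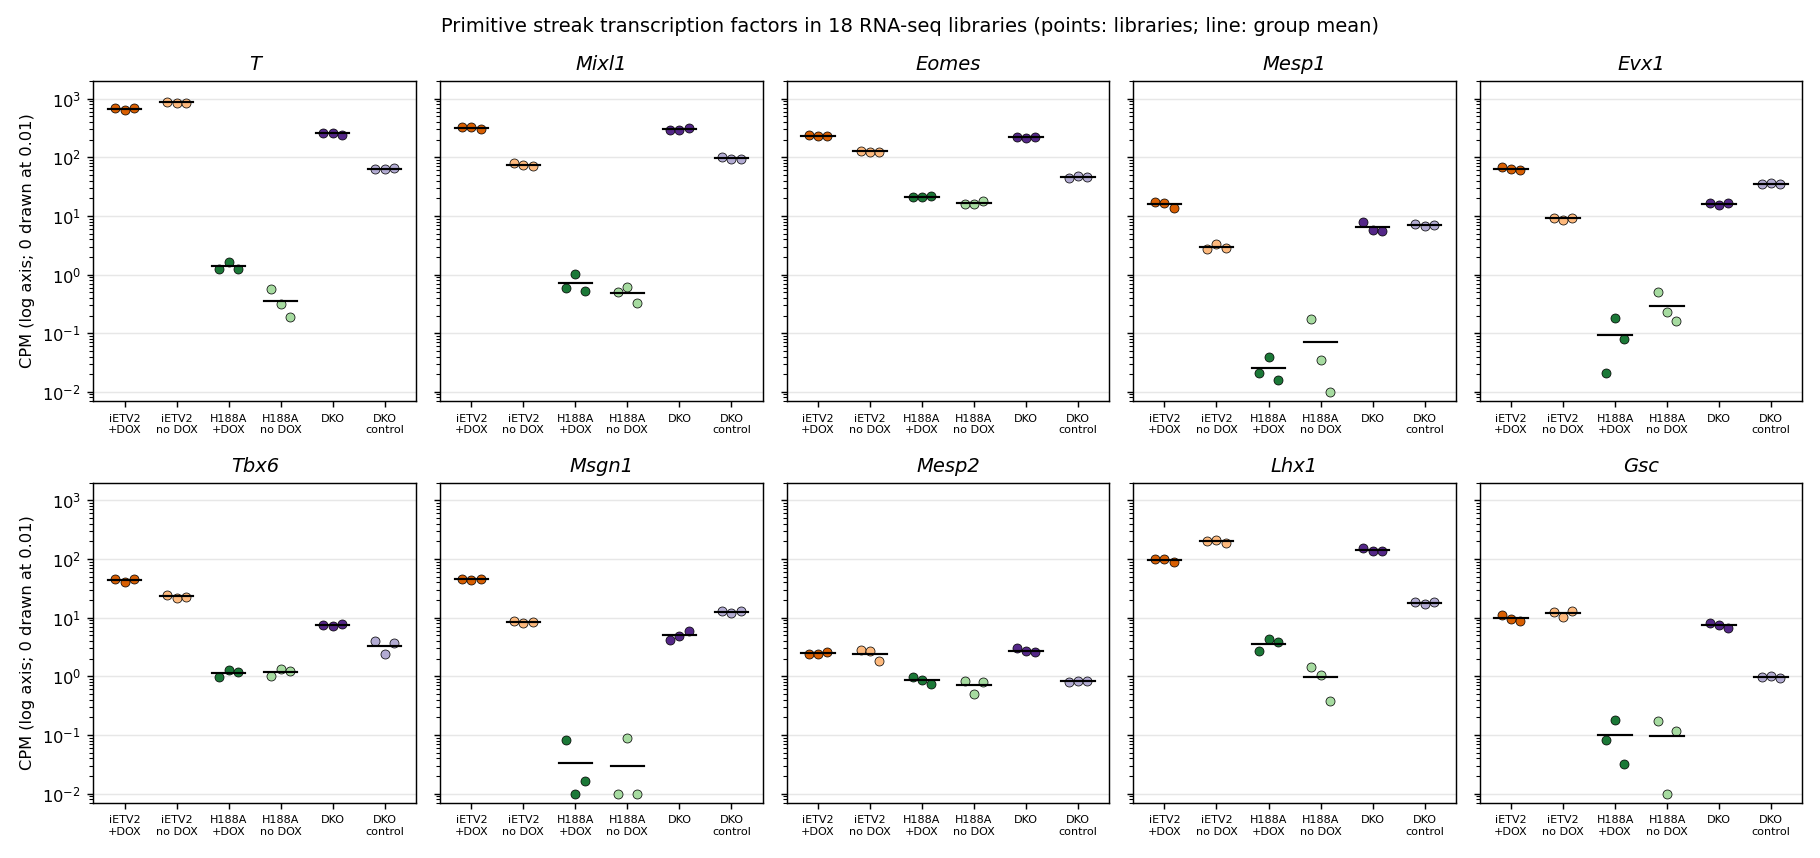
Level of each of the 10 streak factors in CPM (log axis, 0 drawn at 0.01) in 18 libraries, 3 per group, with points for libraries and a line for the group mean. All 10 members sit lower in the H188A line than in iETV2, and Evx1 and Msgn1 are lower, and Lhx1 and T higher, in DKO than in control libraries.

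With DOX in iETV2 cells the posterior factor Evx1 rose most and the anterior factor Lhx1 fell most. Of the 10 members 6 rose, Evx1, Msgn1, Mesp1, Mixl1, Tbx6 and Eomes, 2 fell, Lhx1 and T, and 2, Mesp2 and Gsc, did not pass. The fit behind these counts took no account of replicate numbers, and with them as a block Gsc fell too. Among all 22025 genes tested 13.7% rose and 13.3% fell. All 10 members passed the filter on low counts, their median log2 change was 0.92, and that of all tested genes was 0.00.

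Evx1, the posterior streak factor, stood at 67.4, 62.2 and 60.4 CPM with DOX, against 9.30, 8.45 and 9.39 CPM without DOX. Every DOX library was above every untreated one, with a log2 change of 2.82 ± 0.08 (adjusted p = 4.94e-13), which was the largest of the 10 members. Evx1os, by its name the antisense partner of Evx1 and overlapping its start (chromosome 6, 52308389 to 52314832), moved with it at 41.1 ± 0.88 CPM with DOX and 4.01 ± 0.48 CPM without (log2 change 3.37 ± 0.09, adjusted p = 3.01e-13). Whether reads were counted by strand is not stated, so the shares of the 2 overlapping genes are uncertain. Lhx1os, which starts in the Lhx1 promoter printed above, had 1.04 ± 0.48 CPM with DOX and 1.98 ± 0.42 CPM without and did not pass (-0.91 ± 0.33, adjusted p = 0.0525).

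Msgn1, a factor of presomitic mesoderm, was at 46.0, 43.0 and 46.5 CPM with DOX, against 8.90, 7.96 and 8.31 CPM without. Its groups did not overlap, and it rose by 2.44 ± 0.08 on the log2 scale (adjusted p = 1.91e-12). Mesp1, the mark of mesoderm leaving the streak, was at 17.0, 16.7 and 13.6 CPM with DOX and 2.75, 3.34 and 2.84 CPM without. It rose by 2.41 ± 0.13 (adjusted p = 8.69e-10). Its neighbour and relative Mesp2 was at 2.37, 2.42 and 2.62 CPM with DOX and 2.77, 2.65 and 1.81 CPM without. The Mesp2 groups overlapped, the log2 change was 0.03 ± 0.21 with a 95% interval of -0.41 to 0.48, and the adjusted p was 0.944.

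Mixl1 was at 325.0, 325.4 and 300.7 CPM with DOX, against 79.2, 74.6 and 70.8 CPM without, a log2 change of 2.09 ± 0.08 (adjusted p = 1.27e-11). Eomes and Tbx6 rose by less. Eomes was at 236, 229 and 229 CPM with DOX and 129, 123 and 125 CPM without (0.90 ± 0.07, adjusted p = 2.97e-08). Tbx6 was at 45.5, 40.7 and 45.1 CPM with DOX and 24.6, 21.7 and 22.6 CPM without (0.94 ± 0.08, adjusted p = 1.11e-07). For all 3 genes every DOX library was above every untreated one.

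Lhx1, the LIM factor of the anterior streak, was at 99.6, 101 and 88.8 CPM with DOX, against 201, 209 and 189 CPM without. It fell by 1.04 on the log2 scale (SE 0.08, adjusted p = 6.23e-08), with no overlap of groups. T was at 695, 652 and 690 CPM with DOX and 894, 844 and 847 CPM without. It fell by 0.33 (SE 0.07, adjusted p = 0.00177) without overlap, but without the filter on low counts this call ended (-0.31 ± 0.14, adjusted p = 0.205). Gsc, the other organizer gene, was at 10.9, 9.64 and 8.73 CPM with DOX and 12.5, 10.2 and 12.8 CPM without. Its groups overlapped and the change did not pass (-0.26 ± 0.11, adjusted p = 0.110). With the replicate number as a block it passed (adjusted p = 0.0295), as it did without DOX replicate 1 (-0.40 ± 0.12, adjusted p = 0.0395).

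**Figure D2:**
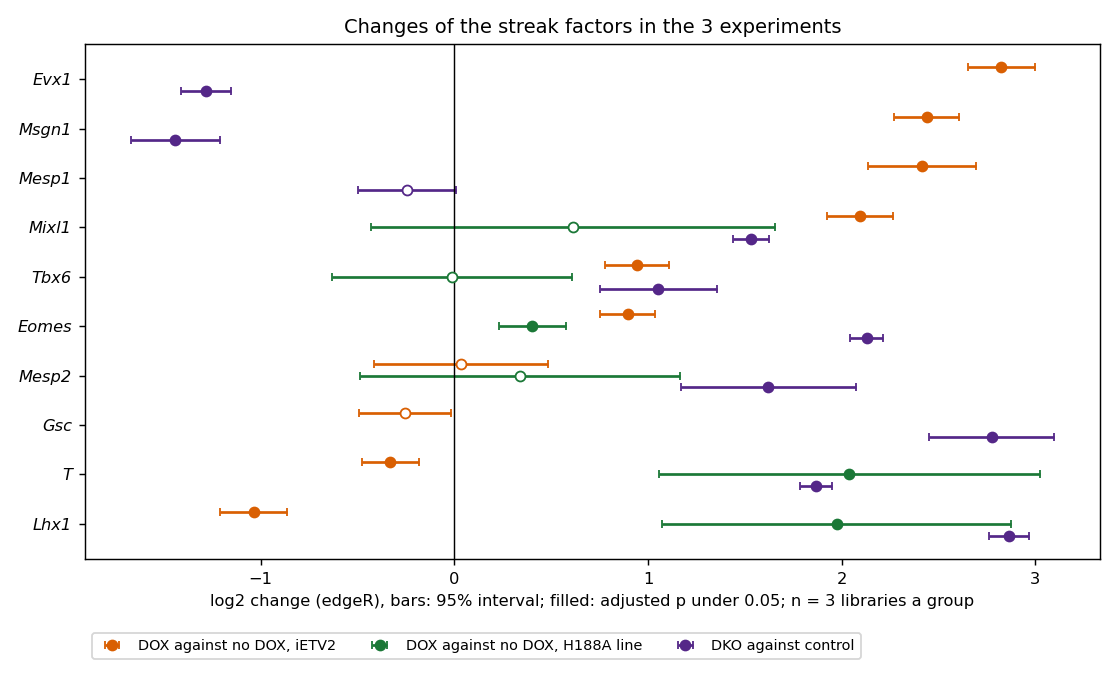
Log2 change of each member with its 95% interval for DOX treatment of iETV2 cells, of H188A cells, and for DKO against control, 3 libraries a group; filled points passed the test, and genes with too few counts in the H188A line have no point there. Evx1 and Msgn1 lie right of 0 for DOX in iETV2 and left of 0 for DKO, and Lhx1 and T lie the other way round.

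Genes with related roles came from 4 lists that hold 58 streak genes beside the members, Nodal standing in 2 of the lists. The lists were chosen with earlier results of these data known, so their counts and medians are descriptions and no independent test. Kdr, of the posterior list, is also 1 of the 8 endothelial and blood markers used below. Of 15 posterior streak and extraembryonic mesoderm genes 14 rose and 1 fell, with a median log2 change of 3.25. Hand1, a factor of extraembryonic and heart mesoderm, was at 118 ± 3.5 CPM with DOX and 0.804 ± 0.18 CPM without (7.24 ± 0.11, adjusted p = 1.05e-15), and Kdr, the VEGF receptor of blood-forming mesoderm, rose by 4.89 ± 0.10 and the T-box gene Tbx3 by 4.65 ± 0.11. The gene that fell was Nkx1-2, at 26.7 ± 3.1 CPM with DOX and 38.9 ± 1.6 CPM without. Of 15 genes of the anterior streak, node and axial mesendoderm 11 fell and 2 rose, with a median of -2.31. Foxj1, a regulator of node cilia, was at 13.9 ± 0.30 CPM with DOX and 226 ± 9.6 CPM without (-4.01 ± 0.08, adjusted p = 1.95e-14), the signal Shh was at 1.83 ± 0.17 and 28.2 ± 0.75 CPM, and the BMP inhibitor Chrd was at 18.2 ± 0.88 and 114 ± 1.3 CPM. The 2 that rose were Foxh1 (0.50 ± 0.07), a partner of NODAL signalling, and the activin inhibitor Fst (0.26 ± 0.06).

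Other presomitic and paraxial genes did not follow Msgn1 and Tbx6: of 14, 9 fell, 1 rose and 4 did not pass, with a median of -0.71. Those that fell included Foxc2 (1.79 ± 0.39 CPM with DOX, 9.56 ± 0.44 CPM without), Meox1 (1.56 ± 0.31 and 7.53 ± 0.91 CPM) and Lfng (6.77 ± 0.53 and 12.7 ± 0.40 CPM), and also Dll1 (-0.49 ± 0.08) and Dll3 (-0.26 ± 0.08), Notch ligand genes of presomitic mesoderm named after their values were known. Meox1 acts in somites, and Lfng is a cyclic gene of presomitic mesoderm. The 1 that rose was Rspo3, an enhancer of WNT signals (0.73 ± 0.07, adjusted p = 9.43e-07). Of 15 streak signals and their readouts 8 rose, 2 fell and 5 did not pass (median 0.37). Snai1, which drives the loss of epithelial shape, rose by 1.66 ± 0.08, Wnt3, the WNT ligand that starts the streak, by 1.23 ± 0.07 and the WNT target Axin2 by 1.15 ± 0.07, while Wnt8a (-1.23 ± 0.08) and Fgf17 (-0.51 ± 0.14) fell. Markers of other cell types moved too: the summed level of 8 endothelial and blood markers was 607 to 634 CPM with DOX and 18.7 to 23.4 CPM without, and all 8 rose. The part of such cells in the changes of the members was not tested.

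**Figure D3:**
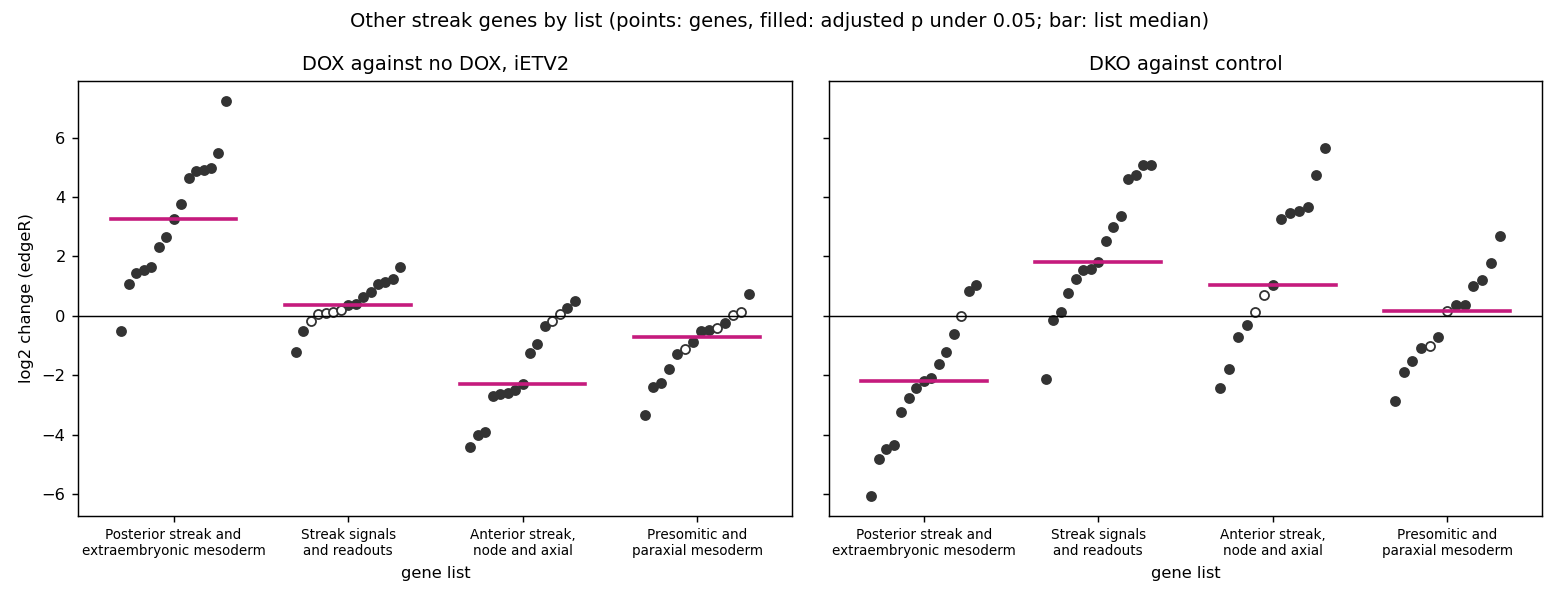
Log2 change of each gene of 4 lists of streak genes, members left out, for DOX in iETV2 (left) and DKO against control (right); filled points passed the test and the bar is the list median. The posterior list has a median of 3.25 with DOX and -2.19 in the DKO comparison, and the anterior list -2.31 and 1.03. Several anterior genes had very low levels in the DKO experiment. The lists were chosen with earlier results of these data known.

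Set against these changes, the members had no H3K9me3 regions close by. Within 5 kb of the 10 genes, 0 held an enriched region in any of the 3 DOX and 3 control ChIP libraries, while 27.0 to 31.0% of 21900 protein-coding genes did with DOX and 27.0 to 27.8% without. The search covered the whole gene and 5 kb on either side, so longer genes had more room for a region. The members are short, as their positions above show, and gene length was not matched. With a window of 20 kb there were 2 members with a region. A region 14182 bases from Msgn1 (chromosome 12, 11187201 to 11194200 in DOX sample 1) was called in all 6 libraries, with 723 ChIP and 489 input counts there. Regions 14612 to 19612 bases from Evx1 were called in 2 of 3 DOX libraries and 1 of 3 control libraries. The DOX calls lay near the limit, with FDR 0.047 (155 ChIP and 157 input counts) and 0.0364 (109 and 105). The control call had FDR 0.00222 (94 and 70 counts). The nearest region to the Lhx1 gene lay 90.7, 111.0 and 91.7 kb away with DOX and 207.8, 207.6 and 91.1 kb away without, and that to T 97.4, 97.2 and 97.8 kb and 46.8, 46.8 and 97.4 kb away. These distances were not tested, since 3 against 3 libraries cannot go below p = 0.1 in an exact test. The ChIP and RNA samples are different samples.

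In the H188A line all 10 members were lower than in iETV2, with DOX and without. Evx1, Mesp1, Msgn1 and Gsc had too few counts in the H188A line alone to pass the low-count filter and entered through iETV2. Their lower calls were therefore favoured in advance. With at least 10 counts required in every library 6 members were left, and all 6 were lower. Among all 25516 genes tested, 17.6% were lower and 19.9% higher with DOX, and 18.6% lower and 19.7% higher without. T was at 1.26, 1.66 and 1.26 CPM in DOX-treated H188A cells, which was 0.205% of its mean in DOX-treated iETV2 cells. Without DOX it was at 0.570, 0.313 and 0.188 CPM in the H188A line, 0.0415% of the untreated iETV2 mean. The log2 difference of the H188A line from iETV2 was -8.84 ± 0.15 with DOX (adjusted p = 3.99e-15) and -11.30 ± 0.18 without (adjusted p = 2.53e-15). Msgn1 had 4, 0 and 1 counts with DOX and 0, 5 and 0 counts without in whole H188A libraries, against 2557 to 2935 and 354 to 525 counts in iETV2. Mesp1 had 1, 2 and 1 counts with DOX and 7, 2 and 0 without, and Evx1 1, 9 and 5 with DOX and 20, 13 and 11 without.

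Eomes was the member with the highest counts in the H188A line, and the least lowered beside Mesp2. Its level was 21.1 ± 0.36 CPM in H188A cells and 232 ± 3.9 CPM in iETV2 with DOX, and at 16.5 ± 1.0 and 126 ± 3.1 CPM without (log2 differences -3.36 ± 0.08 and -2.87 ± 0.08). Mesp2 differed by -1.43 ± 0.27 and -1.74 ± 0.27. The medians over the members, those that entered through iETV2 included, were -7.65 with DOX and -6.29 without. Those of all tested genes were -0.08 and 0.10. Of the 58 other streak genes 45 were lower and 6 higher with DOX, and 42 lower and 9 higher without. The 2 lines were run as separate experiments, so line and experiment cannot be told apart. The lines also differed in other markers: 9 visceral endoderm markers summed to 1094 to 1905 CPM in the H188A line and 112 to 116 CPM in iETV2 with DOX, and to 1384 to 1405 and 107 to 115 CPM without, and 7 embryonic stem cell markers to 1273 to 1548 and 594 to 683 CPM with DOX. Their part in the low streak levels was not tested.

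Fewer streak genes were called for DOX within the H188A line than in iETV2, as was so for all genes (637 called against 5939). Standard errors were larger in the H188A line, 0.44 against 0.07 for T and 0.40 against 0.08 for Lhx1. Fewer calls therefore need not mean fewer changes. Of the 6 members with enough counts to be tested 3 rose, T, Lhx1 and Eomes, and 0 fell, where 2.22% of 21086 tested genes rose and 0.801% fell. T was at 1.26 to 1.66 CPM with DOX against 0.188 to 0.570 CPM without (2.04 ± 0.44, adjusted p = 0.0417). Lhx1 was at 2.65, 4.29 and 3.80 CPM with DOX, against 1.46, 1.06 and 0.377 CPM without (1.97 ± 0.40, adjusted p = 0.0357). Eomes was at 20.9, 21.0 and 21.5 CPM with DOX, against 16.0, 15.7 and 17.7 CPM without (0.40 ± 0.08, adjusted p = 0.0285). None of these 3 groups overlapped, yet 0 members passed without DOX replicate 2, without DOX replicate 3 or without untreated replicate 2, and 2 passed without DOX replicate 1 or untreated replicate 1. The untreated libraries also stood apart from each other in counts of 1754 odorant, vomeronasal and trace-amine receptor genes, at 598, 195 and 49.1 CPM in all, beside 34.8 to 92.6 CPM with DOX. Adding that receptor sum to the model left T (2.85 ± 0.40) and Lhx1 (2.94 ± 0.35) called, but not Eomes (0.32 ± 0.09, adjusted p = 0.214). Markers of visceral endoderm, a tissue in which Eomes is also active, summed to 1905, 1119 and 1094 CPM in the 3 DOX libraries and 1384 to 1405 CPM in the untreated ones. Of these 9 markers 0 were called, and their part in the change of Eomes was not tested.

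Mixl1 (0.61 ± 0.47, 95% interval -0.43 to 1.66), Mesp2 (0.34 ± 0.37) and Tbx6 (-0.01 ± 0.28) did not pass in the H188A line, and Evx1, Msgn1, Mesp1 and Gsc had too few counts to be tested. Of the 53 other streak genes tested there, 4 rose, 2 fell and 47 did not pass, while 2.22% of all tested genes rose and 0.801% fell. Kdr rose most, at 55.8 ± 0.21 CPM with DOX and 3.26 ± 2.1 CPM without (4.22 ± 0.32, adjusted p = 0.000287), followed by Wnt3 (2.08 ± 0.24), Rspo3 (1.63 ± 0.28) and Hhex (1.03 ± 0.16), a homeobox gene of anterior endoderm. The Notch ligand gene Dll1 (-0.75 ± 0.08) and Hoxb1 (-1.32 ± 0.23) fell. Of these, Dll1, Hhex and Hoxb1 fall outside the naming rule and were chosen on their values. Among the endothelial and blood markers 7 were tested in this line, and 4 rose, Kdr being 1 of them.

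The difference between the DOX effects of the 2 lines was tested as an interaction, on the same libraries. It was called for 7 members, 2 higher and 5 lower in the H188A line, against 8.22% and 6.2% of all tested genes. The DOX effect was higher in the H188A line for Lhx1 (3.09 ± 0.32, adjusted p = 6.58e-06) and T (2.46 ± 0.25, adjusted p = 5.86e-06), which fell in iETV2. It was lower for Evx1 (-4.26 ± 0.51, adjusted p = 2.61e-05), Mesp1 (-3.44 ± 1.01, adjusted p = 0.0318), Mixl1 (-1.47 ± 0.30, adjusted p = 0.00318), Tbx6 (-0.96 ± 0.18, adjusted p = 0.00142) and Eomes (-0.49 ± 0.11, adjusted p = 0.00475). For Evx1 and Mesp1 the H188A side rests on the few counts given above, and without untreated H188A replicate 1 the Mesp1 call ended (-1.79 ± 1.31, adjusted p = 0.505). It also ended without iETV2 untreated replicate 1 (adjusted p = 0.0579), H188A DOX replicate 1 (0.0738) or H188A DOX replicate 3 (0.0898), and that of Eomes ended without H188A DOX replicate 1 (0.0572) and without the filter on low counts (-0.33 ± 0.21, adjusted p = 0.432). Msgn1 (-2.34 ± 1.19, adjusted p = 0.225), Mesp2 and Gsc did not pass.

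In the third experiment 7 members were higher in the libraries labelled DKO, 2 were lower and 1 did not pass. This comparison changed most genes: 35.6% of 20426 tested genes were higher and 33.7% lower, so most genes of any kind passed. The Kdm4c counts above do not show the knockout, and directions rest on the labels. The anterior genes rose most. Lhx1 was at 152, 139 and 138 CPM in DKO libraries, against 18.4, 17.0 and 18.5 CPM in controls (2.86 ± 0.05, adjusted p = 1.64e-21). Gsc was at 8.12, 7.38 and 6.57 CPM in DKO libraries, against 0.988, 1.02 and 0.949 CPM in controls (2.78 ± 0.15, adjusted p = 7.18e-13). For both, every DKO library was above every control.

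Eomes, T and Mixl1 rose as well. Eomes was at 220 ± 2.3 CPM in DKO and 46.2 ± 1.7 CPM in control libraries (2.13 ± 0.04, adjusted p = 7.5e-21). T was at 264, 256 and 244 CPM in DKO libraries, against 63.5, 63.3 and 65.5 CPM in controls (1.87 ± 0.04, adjusted p = 3.28e-20). Mixl1 was at 293, 295 and 317 CPM in DKO and 99.8, 94.4 and 93.7 CPM in control libraries (1.53 ± 0.04, adjusted p = 8.67e-18). Of the presomitic factors Mesp2 rose (1.62 ± 0.22), to 2.75 ± 0.23 CPM in DKO against 0.817 ± 0.02 CPM in controls, and Tbx6 rose by 1.05 ± 0.15.

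Evx1 and Msgn1 fell. Evx1 was at 16.4, 15.2 and 16.3 CPM in DKO libraries, against 35.6, 36.1 and 35.3 CPM in controls (-1.28 ± 0.06, adjusted p = 4.86e-14), and the overlapping Evx1os fell with it (-1.10 ± 0.08). Msgn1 was at 4.19, 4.91 and 6.00 CPM in DKO libraries, against 12.8, 12.2 and 12.7 CPM in controls (-1.44 ± 0.11, adjusted p = 1.5e-10). The groups of neither gene overlapped. Mesp1, at 7.89, 5.75 and 5.60 CPM in DKO and 7.22, 6.67 and 6.94 CPM in control libraries, overlapped and did not pass (-0.24 ± 0.12, adjusted p = 0.0822), but passed without DKO replicate 1 (-0.41 ± 0.12, adjusted p = 0.00458).

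Posterior streak genes outside the members were mostly lower and streak signals mostly higher, while the anterior and presomitic lists were mixed, set against 35.6% of all tested genes higher and 33.7% lower. Of 15 posterior and extraembryonic genes 12 fell and 2 rose (median -2.19), with Hand1 at 9.73 ± 0.85 CPM in DKO and 599 ± 21 CPM in control libraries and Kdr at 84.3 ± 3.3 and 353 ± 0.95 CPM. Of 13 anterior and node genes tested 7 rose and 4 fell (median 1.03), with Foxj1 (3.65 ± 0.15) and Fst (3.47 ± 0.05) among those that rose and Foxh1 (-0.70 ± 0.04), Hhex (-2.45 ± 0.08), Sox17 (-1.78 ± 0.20) and Nog (-0.32 ± 0.14) those that fell. Sox17, of endoderm, and the BMP inhibitor Nog were named to complete this count. Several genes of the anterior list, named for their low levels, were near 0 CPM in DKO and control libraries. Shh (0.053 and 0.38 CPM) and Noto (0 and 0.063 CPM) were not tested. Cer1 was at 0.50 and 0.046 CPM, and Foxa2, not called, at 0.81 and 0.45 CPM. The list median is the change of Chrd, at 2.79 and 1.25 CPM. Of 15 streak signals and readouts 13 rose and 2 fell, Wnt8a rising by 5.06 ± 0.11. Of 13 presomitic and paraxial genes tested 6 rose and 5 fell (median 0.17). Markers of other cell types differed in both directions. The 8 endothelial and blood markers, all of which fell, summed to 129 to 132 CPM in DKO and 1523 to 1576 CPM in control libraries, and 6 fibroblast markers to 39.6 to 43.0 and 436 to 448 CPM. The 9 visceral endoderm markers summed to 122 to 131 CPM in DKO and 73.3 to 74.4 CPM in control libraries. They did not move together: of 6 tested, 2 were higher and 3 lower, with a median log2 change of -0.11. The 8 neural markers summed to 80.7 to 85.0 and 53.5 to 57.4 CPM, with 4 neural markers higher and 0 lower. The 7 embryonic stem cell markers, all higher, summed to 1218 to 1267 CPM in DKO libraries and 48.4 to 51.6 CPM in controls. What these cells contributed to the streak changes was not tested.

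Set side by side, DOX in iETV2 and DKO, which share no libraries, moved 4 members in opposite directions and 3 in the same one. Of 19521 genes tested in both, 14.9% (2901) were called in opposite directions and 9.46% (1846) in the same one. Opposite calls were thus the more common kind over all genes too, and the split is not particular to the members. The call of T for DOX ended without the low-count filter. Evx1 changed by 2.82 with DOX and -1.28 in the DKO comparison, Msgn1 by 2.44 and -1.44, Lhx1 by -1.04 and 2.86, and T by -0.33 and 1.87. Mixl1 (2.09 and 1.53), Eomes (0.90 and 2.13) and Tbx6 (0.94 and 1.05) rose in both. The ratio of Evx1 to Lhx1 counts within a library, which does not depend on library size, was 0.657 ± 0.037 with DOX and 0.0454 ± 0.0047 without in iETV2, and 0.112 ± 0.0052 in DKO and 1.98 ± 0.12 in control libraries (SD, n = 3 each). Both genes were chosen for their changes, so this ratio is a description only. In the H188A line it was 0.0236 ± 0.017 with DOX and 0.325 ± 0.11 without, on as few as 26 Lhx1 counts. The ratio of Mixl1 to T counts was 0.467 ± 0.032 with DOX and 0.0868 ± 0.0028 without in iETV2, and 1.11, 1.15 and 1.30 in DKO and 1.57, 1.49 and 1.43 in the control libraries.

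**Figure D4:**
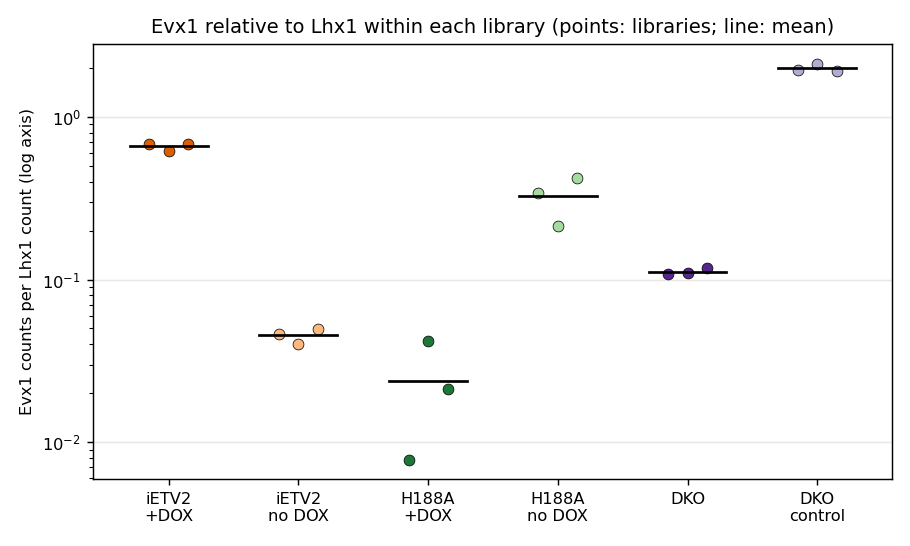
Evx1 counts per Lhx1 count in each of 18 libraries (log axis), with points for libraries and a line for the group mean. The ratio is higher with DOX in iETV2 (0.657 against 0.0454) and lower in DKO than in control libraries (0.112 against 1.98).

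Across the 6 groups the pattern most like that of Lhx1 among 13119 genes was that of the WNT target Sp5, with a root mean square difference of 0.34 between their centred mean log2 CPM, then the signal gene Fgf8 (0.73) and Rtl8c (0.92). For T the nearest were Mixl1 (1.42), Aplnr (1.47), the apelin receptor gene, and Sp5 (1.60). For Mixl1 they were Gm45889 (1.07), Pcdh7 (1.24) and Gm42635 (1.38), and for Evx1 Gm45889 (0.89), Gm42635 (1.10) and Pcdh7 (1.10). These distances are descriptions over 6 groups that differ in line and treatment at once.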

How the data were processed

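RNA-seq libraries were deposited by the authors as raw counts per Ensembl gene, not normalized, 1 table per library. Per the submitters' processing notes, the tools named are DESeq2 1.18.1, HTSeq 2.0.3, featureCounts 2.0.6, StringTie 2.2.1, Picard 3.0.0, STAR 2.7.10b, Bowtie, DiffBind and ChIPseeker, and the builds mm10 and GRCm38. The tool behind each file, the region caller and the strand setting are not given in the sources used here. ChIP lists give, per the file headers, ChIP and input counts, a log2 fold change and an FDR (an adjusted p-value) per region, all as deposited and called per library; input files held no values and were not used.

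Symbols came from an annotation table that named 55141 of 55487 genes, and positions from RefSeq GRCm38.p6. Counts were tested in R 4.3.3 with edgeR 4.0.16 (filterByExpr, TMM, quasi-likelihood test, Benjamini-Hochberg over all tested genes, threshold 0.05) on the 6 libraries of an experiment, or on the 12 libraries of both iETV2 lines for the interaction and line comparisons. SE is the log2 change over the square root of F. CPM used library totals without TMM factors. The steps were tested on simulated data. Alternatives were RLE scaling, DESeq2 1.42.0, other low-count filters, a replicate block, a receptor covariate and leaving out each library. Same-numbered libraries deviated together in iETV2 (correlations 0.161, 0.424 and 0.360 across 13119 genes). The reported tests still had no block, and the fit with the replicate number as a block is given as an alternative. Patterns were compared by group means of log2 CPM with a prior count of 2. Replicates of every group differed by more than counting noise.

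The members and lists were chosen with earlier results of these data known. Named genes were all members, up to 3 genes per list and direction with the smallest adjusted p for DOX in iETV2, overlapping transcripts, Etv2, Kdm4a and Kdm4c, and the 3 genes most alike in pattern to T, Mixl1, Evx1 and Lhx1.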

Additional observations from a re-analysis of the deposited data

Results flagged for a closer look

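The effect of DOX differed between the H188A line and iETV2, by the interaction test, for 7 members. The difference of log2 changes, H188A line minus iETV2, was 2.46 for T, -1.47 for Mixl1, -0.49 for Eomes, -3.44 for Mesp1, -4.26 for Evx1, 3.09 for Lhx1 and -0.96 for Tbx6. T and Lhx1 fell in iETV2 and rose in the H188A line, there from levels of 0.357 ± 0.19 and 0.967 ± 0.55 CPM (SD, n = 3).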

How the results depend on the processing

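Of the members' changes, those of the H188A line against iETV2 kept their direction and their side of the threshold under all alternatives that gave a value, as did those of DKO against control but for Mesp1. For DOX in iETV2 the count of members that fell was 1 in place of 2 with no low-count filter, and with the replicate block, where numbers pair the libraries, Gsc was called (-0.26, adjusted p = 0.0295) and no other member's call changed. Leaving out single libraries gave 6 and 2 to 3 members higher and lower there. The H188A line was least stable. The 3 members that rose with DOX were 0 with the replicate block, which there is a shared number only (correlations 0.030 to 0.317, and 0.002 to 0.050 in the DKO experiment, where the block changed no member's call; in neither did every library correlate best with its own number), and 0 to 3 without single libraries. Its count over all genes, 637, was 423 with RLE size factors, 981 with DESeq2, 2032 with no filter, 263 with the replicate block, 122 with the receptor covariate and 81 to 1839 without single libraries. Among interactions, members lower were 5, but 3 when at least 10 counts were required in every library, which removes Evx1, Mesp1, Msgn1 and Gsc, and 3 to 5 without single libraries; the same filter left 6 and 6 members in the comparisons of the lines. Changes that did not pass turned sign: Tbx6 in the H188A line (0.0068 with DESeq2, 0.037 with no filter, -0.12 to 0.12 without single libraries), Mesp2 with DOX in iETV2 (-0.16 to 0.16), and the interactions of Gsc (-0.38 to 0.85) and Msgn1 (-3.96 to 1.53). The causes were not tested. Members with an H3K9me3 region were 0 within 5 kb and 2 within 20 kb. Counts of 0 to 9 per library limit Evx1, Mesp1, Msgn1 and Gsc in DOX-treated H188A cells.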
